A study of Homo sapiens with 9 samples.

Results

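The EGF receptor family and its ligands were followed as 10 genes, taken by symbol from a table of 60612 genes: the receptors EGFR, ERBB2 and ERBB3 and the ligands HBEGF, TGFA, NRG1, EREG, AREG, BTC and EPGN. Of these, 9 had enough counts to be tested among 15345 genes, and EPGN did not. The cells were MDA-MB-231, an established human breast cancer line of the triple-negative, mesenchymal type, and all were transfected with siRNA and harvested 48 hours later. The 3 groups were control siRNA, MILIP siRNA1 and MILIP siRNA2, with 3 libraries each. MILIP is a long non-coding RNA that the table lists as MAFG-DT. The sample titles and treatment labels name MILIP, whereas a protocol text of the samples names siRNAs to another RNA, PLANE, and the titles were followed here. The labels do not say whether a group's 3 libraries are separate cultures, and the p-values therefore measure library-to-library spread that may be technical. The values come from RNA of whole cultures, in which fewer expressing cells and less RNA per cell cannot be told apart.

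EGFR, ERBB2 and ERBB3 are receptor tyrosine kinases that act in pairs. ERBB2 has no known ligand of its own, and ERBB3 signals mainly through a partner because its kinase is weak. The ligands are made as membrane-anchored precursors, and proteases cut them free: HBEGF, TGFA, AREG, EREG, BTC and EPGN bind EGFR, HBEGF, BTC and EREG can also bind ERBB4, and NRG1 binds ERBB3 and ERBB4. Bound receptors feed the RAS-ERK and PI3K-AKT cascades, which in turn raise transcripts of ligands and of feedback inhibitors. Triple-negative breast cancers lack ERBB2 amplification and often carry much EGFR.

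Library totals ran from 15281220 to 19759371 counts. Libraries of a group differed beyond sampling noise, by a chi-square per gene of 2.145 to 8.059 between pairs, highest for the third control library against the first. The targeted RNA was counted 133, 126 and 148 times in the control libraries, 19, 11 and 37 times with siRNA1, and 10, 19 and 6 times with siRNA2. MILIP thus stood at 14.7% of its control level with siRNA1 and at 7.32% with siRNA2, with log2 fold changes of -2.74 (adjusted p = 2.51e-09) and -3.73 (adjusted p = 5.34e-11), and an exact two-sided permutation test gave p = 0.1 for each, the smallest that 3 libraries against 3 allow. Markers of the line were present: VIM, CD44, ZEB1, CAV1 and ETS1 summed to 6064 to 6436 CPM (counts scaled to a library of 1000000) in control, 5376 to 5707 with siRNA1 and 5622 to 5727 with siRNA2. Of these 5, 4 fell with siRNA1, and 2 rose and 3 fell with siRNA2. The luminal list (ESR1, PGR, GATA3, FOXA1, EPCAM, CDH1) summed to 14.2 to 15.3 CPM in control, 11.9 to 15.5 under siRNA1 and 11.8 to 13.7 under siRNA2. ESR1 and PGR, the hormone receptors, were too low to be tested, and of the other 4 luminal genes FOXA1 and CDH1 rose and GATA3 fell with siRNA1, and EPCAM fell with siRNA2. The endothelial list (PECAM1, CDH5, VWF, KDR) summed to 8.78 to 11.1 CPM in control, 5.78 to 7.09 with siRNA1 and 18.4 to 20.4 with siRNA2. The leukocyte list summed to 1.73 to 2.82, 0.73 to 2.26 and 8.17 to 9.03 in the same order, nearly all of it CD14, with CD3E at 0 counts in all 9 libraries. The fibroblast list (PDGFRA, DCN, LUM, THY1, FAP) summed to 2.91 to 3.52 CPM in control, 1.96 to 2.30 under siRNA1 and 2.30 to 3.26 under siRNA2. PDGFRA, DCN, LUM and FAP were at 0 in control, and THY1 fell with siRNA1 by 0.68 and with siRNA2 by 0.52 on the log2 scale. The part of these moves in the results below was not tested.

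HBEGF and EGFR stood far above the rest of the set in control cells. Levels here are FPKM as deposited, that is fragments per kilobase of exon scaled to library size. The exonic size listed for a member ran from 1642 bases in AREG to 21398 in NRG1, and the order of genes depends on it. In CPM, which are not scaled to length, EGFR (497) stood above HBEGF (279) in control. With siRNA1, NRG1 (176 CPM) stood above HBEGF (66.1 CPM). In the control libraries HBEGF averaged 92.8 ± 2.90 FPKM (SD, n = 3) and EGFR 39.4 ± 7.46, above 97.2% and 92.2% of tested genes. TGFA at 7.84 ± 1.04 FPKM, ERBB2 at 5.90 ± 0.260, NRG1 at 4.66 ± 0.161 and EREG at 4.62 ± 0.582 followed, and NRG1 and EREG overlapped. AREG averaged 2.23 ± 0.525 FPKM, ERBB3 0.48 ± 0.0436, BTC 0.30 ± 0.07 and EPGN 0.0267 ± 0.0115. With siRNA1 NRG1 took the third place behind HBEGF and EGFR, and no neighbours in that order overlapped. With siRNA2 the order began with HBEGF and EGFR, then ERBB2 and EREG, which overlapped, and TGFA and NRG1 came after them.

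**Figure D1:**
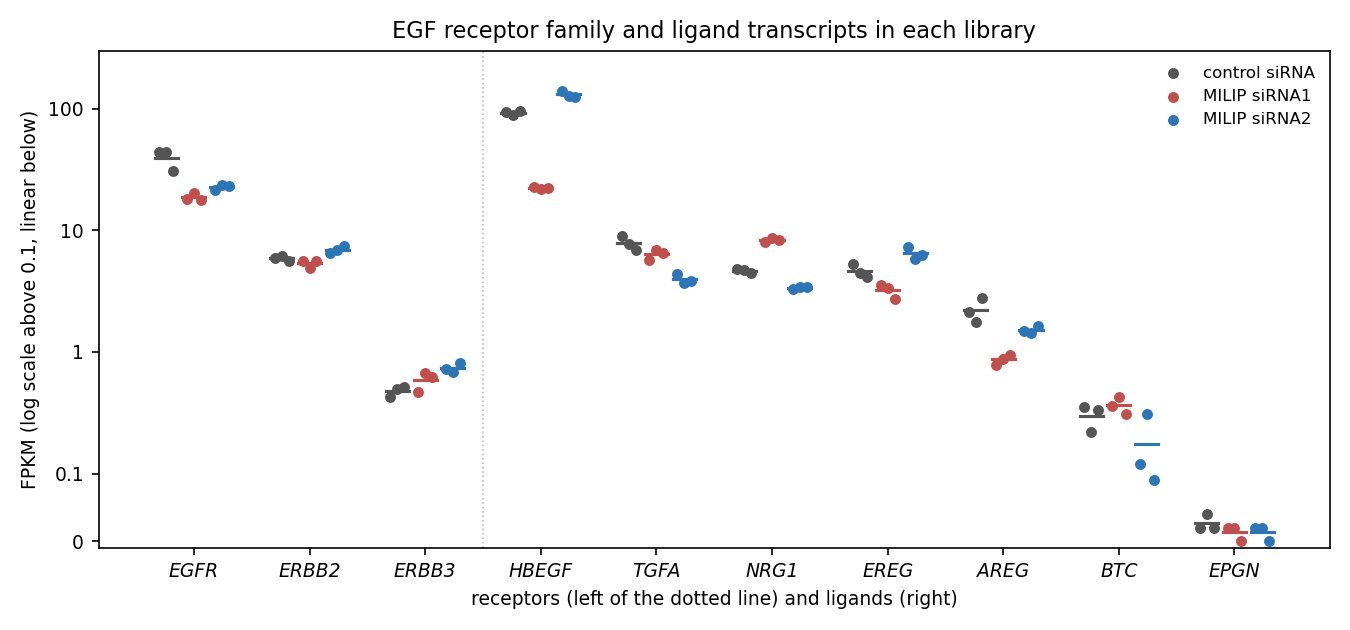
FPKM of the 10 receptor and ligand genes in each of the 9 libraries on an axis that is logarithmic above 0.1 and linear below, with points for libraries and short lines for group means. HBEGF lies between 21.8 and 22.7 with siRNA1, between 89.6 and 95.2 in control and between 125 and 141 with siRNA2.

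Against control siRNA, 6 of the 9 tested members passed the test with siRNA1, beside 50.4% of all tested genes. NRG1 rose, where 25.1% of all tested genes rose, and EGFR, AREG, EREG, HBEGF and TGFA fell, where 25.3% fell. With siRNA2, 8 of the 9 passed, beside 56.1% of all tested genes: ERBB2, ERBB3, EREG and HBEGF rose (27.2% of all genes) and EGFR, AREG, TGFA and NRG1 fell (28.9%). Both comparisons use the same control libraries. The direct comparison of siRNA2 with siRNA1 called 8 of the 9, beside 60.4% of all tested genes, with EGFR, ERBB2, AREG, EREG and HBEGF higher (28.4%) and TGFA, BTC and NRG1 lower (32%) with siRNA2. The median absolute log2 fold change of the tested members was 0.56 with siRNA1, 0.56 with siRNA2 and 0.83 between the siRNAs, beside 0.31, 0.37 and 0.40 over all tested genes.

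**Figure D2:**
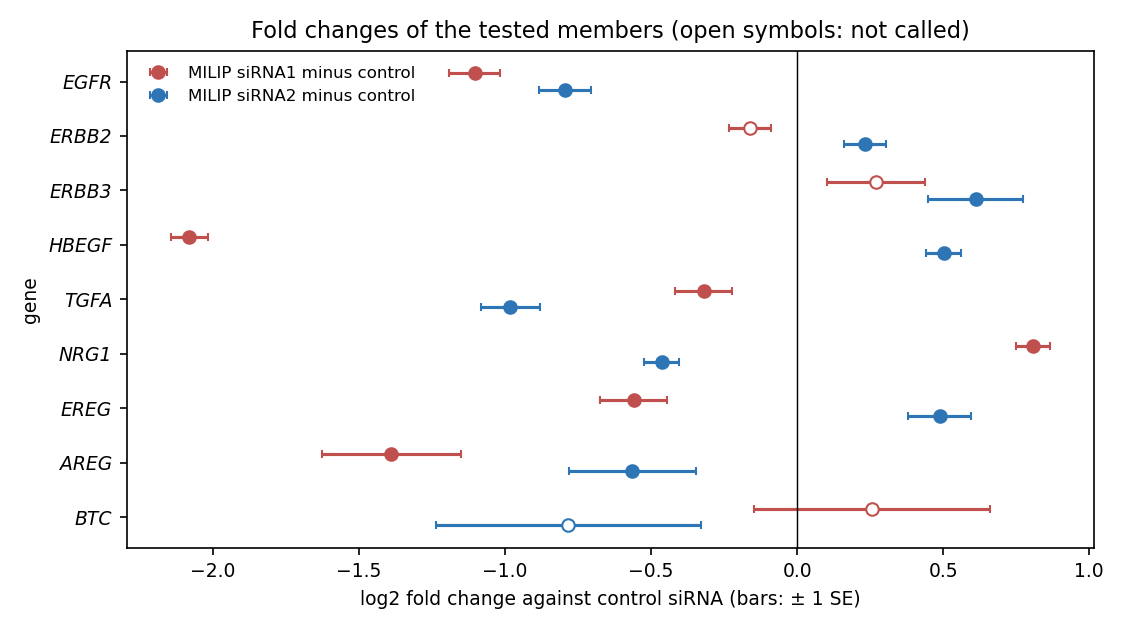
Log2 fold change with its standard error for the 9 tested members with each siRNA against control, open symbols marking values that did not pass the test. HBEGF sits at -2.08 with siRNA1 and 0.50 with siRNA2, NRG1 at 0.81 and -0.46, and EGFR at -1.10 and -0.79.

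EGFR, the receptor for most ligands of the set, was lower with both siRNAs. It was listed at 43.8, 43.7 and 30.8 FPKM in control, 18.1, 20.3 and 17.7 with siRNA1, and 21.6, 23.7 and 23.0 with siRNA2. All 6 MILIP siRNA libraries lay below all control libraries, and the third control library lay well below the other 2. EGFR fell by 1.10 on the log2 scale under siRNA1 (SE 0.0882, adjusted p = 1.48e-10), and its siRNA2 value was -0.79 (SE 0.0874, adjusted p = 2.84e-08). Leaving out the third control library gave -1.27 and -0.94. EGFR was higher with siRNA2 than with siRNA1 by 0.31 (SE 0.0879, adjusted p = 0.00379), a call lost with limma on log2(FPKM + 1) and on log2(FPKM + 0.1) (adjusted p = 0.0616 and 0.056; range over 17 alternatives 7.67e-08 to 0.0616). In the table EGFR (ENSG00000146648) is at chr7:55019017-55211628 on the plus strand of GRCh38, and 186 of its exonic bases overlap the antisense gene EGFR-AS1.

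ERBB2, the ligand-less partner receptor, moved little. Its FPKM was 5.91, 6.16 and 5.64 in control, 5.60, 4.94 and 5.58 with siRNA1, and 6.51, 6.90 and 7.39 with siRNA2. Every siRNA2 library was above every other library, by a small margin. ERBB2 rose by 0.23 on the log2 scale with siRNA2 (SE 0.0721, adjusted p = 0.00821), and its siRNA1 value was -0.16 (SE 0.0732, adjusted p = 0.0707). Between the siRNAs it differed by 0.39 (SE 0.0722, adjusted p = 4.51e-05). Without the third siRNA2 library the siRNA2 call was lost (0.19, adjusted p = 0.0574; range over 17 alternatives 0.00283 to 0.0574), and without the third control library or the first siRNA1 library the siRNA1 call was made (adjusted p = 0.0267 and 0.0417; range 0.0267 to 0.277). ERBB2 (ENSG00000141736, chr17:39687914-39730426, plus strand) shares 571 exonic bases with MIEN1 and 194 with PGAP3 on the opposite strand, and whether counting used strand was not given in the sources used here.

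ERBB3, the receptor for neuregulins, was a low transcript, above 16.3% of tested genes in control. It was listed at 0.43, 0.50 and 0.51 FPKM in control, 0.47, 0.67 and 0.62 with siRNA1 and 0.73, 0.68 and 0.81 with siRNA2. Levels were highest in the siRNA2 libraries, and the siRNA1 libraries overlapped control. ERBB3 rose by 0.61 on the log2 scale with siRNA2 (SE 0.163, adjusted p = 0.00245). The difference with siRNA1 was 0.27 (SE 0.168, adjusted p = 0.193), and that between the siRNAs was 0.34 (SE 0.156, adjusted p = 0.0618), which passed in 5 of 16 alternatives (adjusted p from 0.0313 to 0.235). ERBB3 (ENSG00000065361) is at chr12:56076799-56103505 on the plus strand.

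HBEGF, heparin-binding EGF-like growth factor, was the highest member in FPKM and moved in opposite directions with the 2 siRNAs. Its FPKM was 93.5, 89.6 and 95.2 in control, 22.7, 21.8 and 22.5 with siRNA1, and 141, 128 and 125 with siRNA2. No groups overlapped, and within each the libraries lay close together. HBEGF was 4.23-fold lower with siRNA1 (log2 -2.08, SE 0.0638, adjusted p = 2.21e-18). With siRNA2 it was 1.42-fold higher (log2 0.50, SE 0.0592, adjusted p = 8.98e-08). Between the siRNAs it differed 5.99-fold (log2 2.58, SE 0.0643, adjusted p = 1.58e-20). Among the 15345 tested genes, 68 (0.443%) had a more negative fold change with siRNA1. HBEGF (ENSG00000113070) is at chr5:140332843-140346603 on the minus strand, with no exonic overlap with another gene in GENCODE v29.

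EREG, AREG, BTC and EPGN, ligands of EGFR, lie together on chromosome 4 within 486.1 kb, in the order EPGN, EREG, AREG, BTC. EREG (ENSG00000124882, chr4:74365145-74388749, plus strand) and AREG (ENSG00000109321, chr4:74445136-74455005, plus strand) are neighbours 56.4 kb apart. Their promoters are shown as those of neighbours that both fell with siRNA1. With siRNA2 EREG rose, and AREG fell by a call that some alternatives lost. The promoter of HBEGF is shown as that of the ligand highest in FPKM. The sequences are from RefSeq (GRCh38.p14, 250 bases before to 50 after the start), 8 of the 10 members being in that table. Capitals mark the motifs that were searched on both strands: TATAAA, the cyclic AMP response element (CRE) TGACGTCA, the GC box GGGCGG, and the AP-1 site TGACTCA or TGAGTCA.
AREG promoter, chr4:74444886-74445185, plus strand: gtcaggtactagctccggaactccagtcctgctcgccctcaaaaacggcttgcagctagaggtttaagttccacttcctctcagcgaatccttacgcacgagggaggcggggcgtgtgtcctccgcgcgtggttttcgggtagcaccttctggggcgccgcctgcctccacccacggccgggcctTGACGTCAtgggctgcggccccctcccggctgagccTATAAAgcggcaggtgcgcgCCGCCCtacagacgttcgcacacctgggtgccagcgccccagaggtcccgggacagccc
EREG promoter, chr4:74364895-74365194, plus strand: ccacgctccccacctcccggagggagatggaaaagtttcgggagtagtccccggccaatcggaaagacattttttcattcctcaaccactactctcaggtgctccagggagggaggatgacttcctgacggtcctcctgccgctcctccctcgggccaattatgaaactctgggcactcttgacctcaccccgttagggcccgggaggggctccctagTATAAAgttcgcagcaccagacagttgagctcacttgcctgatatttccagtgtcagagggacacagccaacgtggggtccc
HBEGF promoter, chr5:140346554-140346853, minus strand: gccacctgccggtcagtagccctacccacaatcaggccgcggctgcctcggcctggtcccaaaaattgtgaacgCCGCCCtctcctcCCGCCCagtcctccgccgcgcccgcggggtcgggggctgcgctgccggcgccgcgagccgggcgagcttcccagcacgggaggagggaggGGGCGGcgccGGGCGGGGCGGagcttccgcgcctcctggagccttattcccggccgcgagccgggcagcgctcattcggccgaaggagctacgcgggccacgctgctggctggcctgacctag
The AREG promoter holds a CRE that begins 65 bases before the start, a TATA sequence at 29 before and a GC box at 9 before. The EREG promoter holds a TATA sequence at 32 before and none of the other motifs, and the HBEGF promoter holds 5 GC boxes. Among 35116 promoters of this length, 1.8% hold the CRE, 11.5% TATAAA, 45.0% a GC box and 4.9% an AP-1 site. No AP-1 match was in the windows of the 8 members, and matches are a description of letters, not of bound sites.

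EREG, epiregulin, was listed at 5.26, 4.49 and 4.12 FPKM in control, 3.53, 3.36 and 2.72 with siRNA1 and 7.34, 5.80 and 6.30 with siRNA2. Every siRNA1 library was below and every siRNA2 library above the control libraries. Relative to control EREG was at -0.56 (SE 0.114, adjusted p = 0.000229) and 0.49 (SE 0.107, adjusted p = 0.000398) on the log2 scale, and the siRNAs differed by 1.05 (SE 0.111, adjusted p = 1.09e-08).

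Amphiregulin, AREG, was listed at 2.14, 1.75 and 2.79 FPKM in control, 0.78, 0.87 and 0.95 with siRNA1 and 1.50, 1.42 and 1.63 with siRNA2. Both siRNA groups lay below control, siRNA1 lower than siRNA2, and the control libraries were the most spread. AREG fell by 1.39 on the log2 scale with siRNA1 (SE 0.238, adjusted p = 2.91e-05), and 276 genes had a more negative fold change. With siRNA2 the value was -0.56 (SE 0.217, adjusted p = 0.0298), on 44 to 79 counts in control and 46 or 47 with siRNA2. That call was lost with DESeq2 (adjusted p = 0.0724), with no filter on low counts (0.0574), and without control library 1 (0.0514), control library 3 (log2 -0.36, 0.222), siRNA2 library 1 (0.0644) or siRNA2 library 2 (0.0908), with adjusted p from 0.0133 to 0.222 over 17 alternatives. AREG was 0.83 higher on the log2 scale with siRNA2 than with siRNA1 (SE 0.247, adjusted p = 0.00569).

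BTC, betacellulin, and EPGN, epigen, were hardly counted. BTC (ENSG00000174808, chr4:74744759-74794523, minus strand) had 15, 9 and 15 counts in control, 15, 20 and 16 with siRNA1 and 6, 16 and 4 with siRNA2. Library 2 of siRNA2 was as high as the other groups. With siRNA1 BTC differed from control by 0.26 on the log2 scale (SE 0.405, adjusted p = 0.63). The siRNA2 value was -0.78 (SE 0.453, adjusted p = 0.147), or -1.51 (adjusted p = 0.0222; range over 16 alternatives 0.0222 to 0.417) without that library. The difference of -1.04 between the siRNAs (SE 0.434, adjusted p = 0.0418) was lost in 9 of 16 alternatives (adjusted p from 0.00586 to 0.18), DESeq2 among them (0.079). EPGN (ENSG00000182585, chr4:74308470-74316789, plus strand) had 0 to 2 counts in every library, under the 3 counts that a count of 0 allows, so no difference was detectable at this depth.

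TGFA, transforming growth factor alpha, was lower with both siRNAs, and more so with siRNA2. Its FPKM was 8.92, 7.75 and 6.84 in control, 5.71, 6.87 and 6.57 with siRNA1 and 4.35, 3.70 and 3.83 with siRNA2. Levels were lowest in the siRNA2 libraries, while the highest siRNA1 library just passed the lowest control library. TGFA fell by 0.98 on the log2 scale with siRNA2 (SE 0.101, adjusted p = 9.2e-09). With siRNA1 it fell by 0.32 (SE 0.0976, adjusted p = 0.00844), a call lost without the first control library (-0.22, adjusted p = 0.0773; range over 17 alternatives 0.000539 to 0.0773). The direct difference was -0.66 (SE 0.102, adjusted p = 4.06e-06). TGFA (ENSG00000163235) is at chr2:70447284-70554193 on the minus strand.

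NRG1, neuregulin 1, was the ligand that rose with siRNA1 and fell with siRNA2, the opposite order to HBEGF and EREG. It was listed at 4.79, 4.71 and 4.48 FPKM in control, 8.04, 8.62 and 8.27 with siRNA1 and 3.28, 3.42 and 3.44 with siRNA2. These groups were well apart. NRG1 rose by 0.81 on the log2 scale under siRNA1 (SE 0.0585, adjusted p = 2.33e-11), and its value was -0.46 (SE 0.0599, adjusted p = 3.9e-07) under siRNA2 and -1.27 (SE 0.0593, adjusted p = 2.55e-15) between them. NRG1 has the identifier ENSG00000157168.

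Added together, the 7 ligands came to 112 ± 3.43 FPKM in control (SD, n = 3), 41.5 ± 0.443 with siRNA1 and 147 ± 9.44 with siRNA2, a sum given with no test. HBEGF made up 82.5% ± 1.18 of it in control, 53.9% ± 1.69 with siRNA1 and 89.4% ± 0.292 with siRNA2. The share of NRG1 was 4.15% ± 0.203, 20.03% ± 0.50 and 2.31% ± 0.201. In FPKM, ligand transcripts in the siRNA1 libraries were thus fewer in sum and more evenly spread over HBEGF, NRG1 and TGFA. These sums and shares depend on the exonic size listed for each gene. The 3 receptors summed to 45.8 ± 7.67 FPKM in control, 24.6 ± 1.09 with siRNA1 and 30.4 ± 1.40 with siRNA2, of which EGFR made up 85.8% ± 2.15, 75.8% ± 2.28 and 74.8% ± 1.05.

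**Figure D3:**
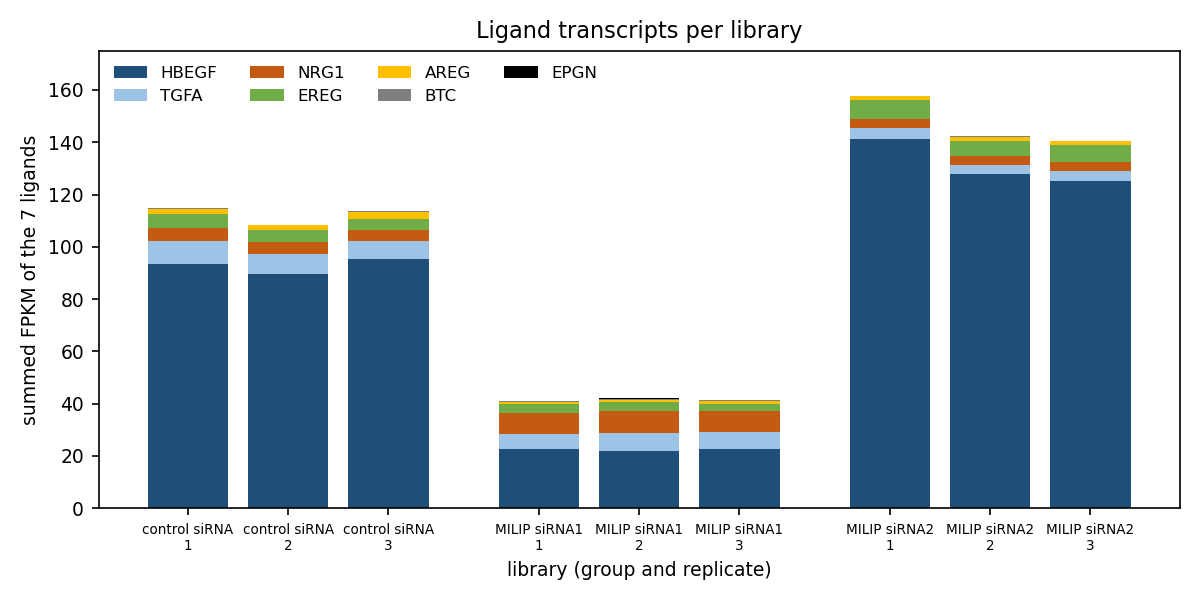
Summed FPKM of the ligand transcripts in each of the 9 libraries, stacked by ligand. The sum is 109 to 114.9 in control, 41.2 to 42.0 with siRNA1 and 140.5 to 158 with siRNA2, and HBEGF is the tallest block in every library.

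Other genes of the family were scarce. EGF itself had 14, 14 and 20 counts in control, 18, 22 and 21 with siRNA1 and 47, 43 and 35 with siRNA2, and it rose by 1.17 on the log2 scale with siRNA2 (SE 0.284, adjusted p = 0.00103). With siRNA1 its value was 0.21 (adjusted p = 0.602). NRG2 fell by 0.85 with siRNA2 (adjusted p = 0.000289) and was at -0.19 with siRNA1 (adjusted p = 0.377), though 234 of its exonic bases overlap a gene on the opposite strand. ERBB4, the other neuregulin receptor, had 0 to 3 counts, NRG4 0 to 6 and NRG3 0 in every library, and none of them was tested.

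Short words in the 3′ untranslated regions were compared because an earlier reading of these data had linked the words AATTCCA or ATTCCAA to lower genes with siRNA1, and GACCCTA or ACCCTAA to lower genes with siRNA2. The words were therefore chosen on these fold changes, and their presence in a gene that fell is no independent evidence. The siRNA sequences themselves were not used here. Windows are 29 bases from GENCODE v29 (GRCh38), with the word in capitals. A further ATTCCAA of MILIP, at chr17:81928148-81928154, is not shown. The windows show, for each word, 1 match in MILIP and 1 site in each member that holds it other than NRG1, whose sequence is not shown:
MILIP, siRNA1 word, chr17:81930349-81930377, plus strand: ggagtcagggcAATTCCAaccaagaaact
HBEGF, siRNA1 word, chr5:140333958-140333986, minus strand: aatgccggttaAATTCCAtatgctccagg
ERBB3, siRNA1 word, chr12:56102164-56102192, plus strand: cagtcccagacAATTCCAttcaatctttg
EGFR, siRNA1 word, chr7:55210496-55210524, plus strand: ctcctgaggtcATTCCAAtgtgcggccaa
MILIP, siRNA2 word, chr17:81930473-81930501, plus strand: ggtaacatagaGACCCTAtcgctacaaga
TGFA, siRNA2 word, chr2:70450356-70450384, minus strand: tatcacatgaaGACCCTAgctttaagaga
EGFR, siRNA2 word, chr7:55207696-55207724, plus strand: tgaggtcagtcACCCTAAacaacctgctc
The siRNA1 word was in an annotated 3′ untranslated region of 4 members (EGFR, ERBB3, HBEGF and NRG1) and in 24.9% of 12630 tested genes with such a region. Of these 4, EGFR and HBEGF fell with siRNA1, NRG1 rose and ERBB3 did not pass. The siRNA2 word was in EGFR, TGFA and NRG1, against 11.7% of tested genes, and all 3 fell with siRNA2. AREG and EREG held neither word and fell with siRNA1, and AREG was also called lower with siRNA2. TGFA lacked the siRNA1 word and fell with siRNA1. Of the members that fell, 2 of 5 with siRNA1 and 3 of 4 with siRNA2 held the word of that siRNA. Of the tested members that did not fall, 2 of 4 with siRNA1 and 0 of 5 with siRNA2 held it. ERBB2, BTC and EPGN held neither word. The regions differ in length, from 269 bases in AREG to 6011 in EGFR as the longest annotated, and length was not matched. Among all tested genes with such a region, the siRNA1 word was in 39.5% of those lower with siRNA1 and 19.2% of the others, and the siRNA2 word in 17.5% of those lower with siRNA2 and 9.1% of the others. Among the pathway lists, the siRNA1 word was in 16 of 26 genes lower with siRNA1 and 10 of 53 others, and the siRNA2 word in 2 of 12 lower with siRNA2 and 11 of 67 others.

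Of 7 listed genes that act on the release of ligands from the membrane, 6 promoting it and TIMP3 inhibiting it, all 7 rose with siRNA2, where 27.2% of all tested genes rose. With siRNA1, 3 rose and 2 fell, where 25.1% and 25.3% of all tested genes did. This list, like the others, was chosen with earlier results of these data known, so its counts are a description. The list's median log2 fold change was 0.80 with siRNA2 and 0.18 with siRNA1, beside -0.01 and 0.00 over all tested genes. Levels of pathway genes are in CPM, which are not scaled to length. ADAM10, the protease that cuts BTC and EGF precursors among others, was at 111, 99.8 and 97.8 CPM in control, 37.4, 41.1 and 35.3 with siRNA1 and 168, 179 and 185 with siRNA2. It stood apart in all 3 groups, with log2 fold changes of -1.44 (SE 0.0733, adjusted p = 2.86e-14) and 0.78 (SE 0.0679, adjusted p = 4.45e-10). ADAM17, the main sheddase of HBEGF, TGFA, AREG and EREG, was at 102, 97.3 and 93.8 in control, 107, 118 and 108 with siRNA1 and 211, 205 and 211 with siRNA2. All siRNA2 libraries were far above the others. ADAM17 was 2.14-fold higher with siRNA2 (log2 1.10, SE 0.0603, adjusted p = 1.11e-13) and rose by 0.18 on the log2 scale with siRNA1 (adjusted p = 0.0146). That siRNA1 call was lost without the third control library (adjusted p = 0.0732) or the second siRNA1 library (0.0661), in a range of 0.00667 to 0.0732 over 17 alternatives. ADAM17 shares 1323 exonic bases with IAH1 on the opposite strand.

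TIMP3, an inhibitor of ADAM17 and ADAM10, fell by 0.55 on the log2 scale with siRNA1 (adjusted p = 1.57e-07) and rose by 0.78 with siRNA2 (adjusted p = 1.92e-10). FURIN, which activates the ADAM precursors, rose by 0.36 and 0.80 (adjusted p = 4.45e-05 and 1.25e-10). RHBDF1, a rhomboid-like protein that carries ADAM17 to the cell surface, rose by 0.98 with siRNA2 (adjusted p = 3.37e-11) and was at 0.05 with siRNA1 (adjusted p = 0.648). RHBDL2, a rhomboid protease, was scarce, and its rise of 1.56 with siRNA2 (adjusted p = 0.0169) was lost in 2 of 15 alternatives (adjusted p from 0.0101 to 0.0782). ADAM10 and its inhibitor TIMP3 thus both fell with siRNA1 and rose with siRNA2, and no protein or shed ligand was measured.

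**Figure D4:**
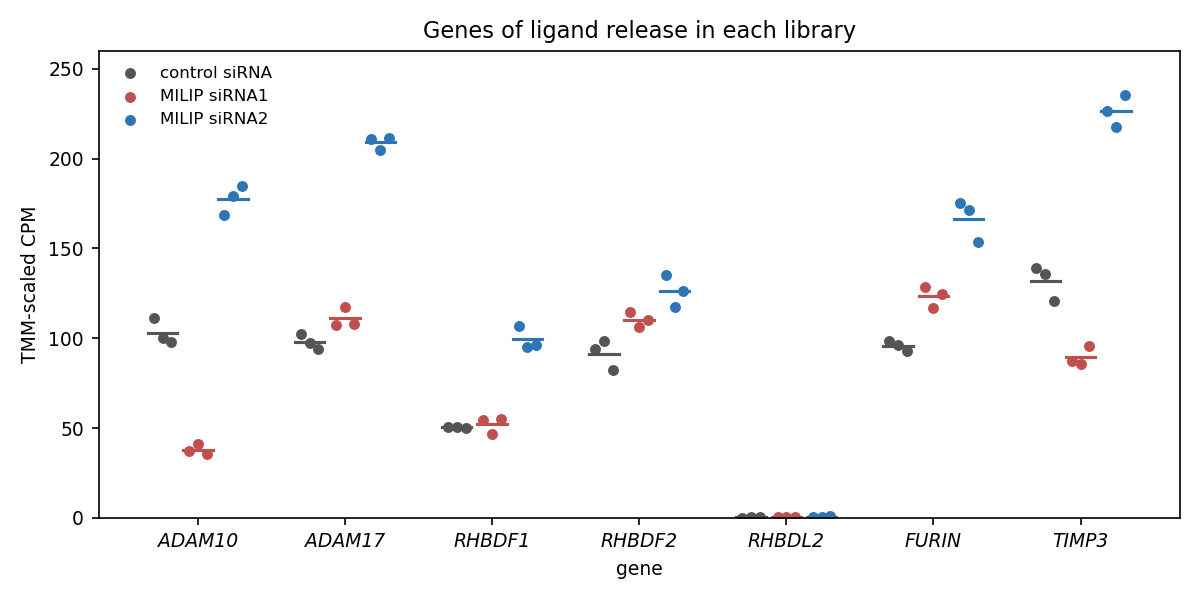
TMM-scaled CPM of genes that act in ligand release in each of the 9 libraries, with points for libraries and short lines for group means. ADAM10 is between 35.3 and 41.1 with siRNA1, 97.8 and 111 in control and 168 and 185 with siRNA2, and ADAM17 with siRNA2 is between 205 and 211.

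Downstream of the receptors, 1 of 16 adaptor and RAS-ERK genes rose and 4 fell with siRNA1, beside 25.1% and 25.3% of all tested genes. With siRNA2, 6 rose and 2 fell, beside 27.2% and 28.9%. GAB1, a docking adaptor of EGFR, fell by 1.17 on the log2 scale with siRNA1 (adjusted p = 7.33e-07) and was at 0.04 with siRNA2 (adjusted p = 0.845). NRAS rose with both, by 0.27 (adjusted p = 0.00378) and 0.82 (adjusted p = 8.44e-10). SHC1 and SOS2, an adaptor and a RAS activator, rose with siRNA2 by 0.47 (adjusted p = 7.31e-08) and 0.60 (adjusted p = 3.88e-06).

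In the PI3K-AKT and phospholipase branch, 4 of 11 listed genes rose and 4 fell with siRNA1 (25.1% and 25.3% of all tested genes), and 3 rose and 2 fell with siRNA2 (27.2% and 28.9%). PIK3R1, a regulatory subunit of PI3K, fell by 0.39 with siRNA1 (adjusted p = 0.00108), and PIK3CB, 1 of its catalytic subunits, rose by 0.39 (adjusted p = 0.000233). MTOR fell by 0.36 with siRNA2 (adjusted p = 0.000141).

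Of 15 feedback inhibitors of the pathway, 5 rose and 5 fell with siRNA1, where 25.1% of all tested genes rose and 25.3% fell. With siRNA2, 6 rose and 2 fell, where 27.2% and 28.9% did. SPRY4, a Sprouty inhibitor of the RAS-ERK cascade, was at 191, 190.4 and 174 CPM in control, 405, 418 and 407 with siRNA1 and 147, 142 and 138 with siRNA2. Its groups did not overlap, and it rose by 1.15 with siRNA1 (adjusted p = 1.52e-14) and fell by 0.38 with siRNA2 (adjusted p = 3.59e-06). SPRY1 rose by 1.79 with siRNA1 (adjusted p = 6.56e-13). Its value of -0.29 with siRNA2 (adjusted p = 0.0466) was lost in 12 of 17 alternatives (adjusted p from 0.0173 to 0.216). ERRFI1, which binds the EGFR kinase and blocks it, moved the other way: it was at 255, 245 and 244 CPM in control, 177, 184 and 181 with siRNA1 and 513, 499.7 and 498 with siRNA2. ERRFI1 had log2 fold changes of -0.46 (adjusted p = 8.71e-08) and 1.02 (adjusted p = 3.13e-14). LRIG1, which lowers ERBB receptor protein, went the same way with -0.24 (adjusted p = 0.00364) and 0.74 (adjusted p = 3.77e-10). SOCS4 fell by 0.77 with siRNA1 (adjusted p = 5.61e-07), and SOCS5 rose by 0.40 and 0.53 (adjusted p = 0.000681 and 1.6e-05).

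Of 15 tested genes for receptor endocytosis and its ubiquitin ligases, 4 rose and 5 fell with siRNA1, close to the 25.1% and 25.3% of all tested genes. With siRNA2, 9 rose and 2 fell, beside 27.2% and 28.9% of all tested genes. CBL, the ubiquitin ligase that marks bound EGFR for the lysosome, was at 92.7, 94.8 and 63.0 CPM in control, 39.1, 43.2 and 38.6 with siRNA1 and 76.7, 81.8 and 79.0 with siRNA2. As for EGFR, the third control library was the lowest of its group. CBL fell by 1.05 with siRNA1 (adjusted p = 7.49e-09), and with siRNA2 the value was -0.07 (adjusted p = 0.549), or -0.24 (adjusted p = 0.00412; range over 17 alternatives 0.00412 to 0.871) without that control library. Its relative CBLB rose by 0.75 and 0.87 (adjusted p = 0.00125 and 0.000203). STAM, a sorting adaptor, rose by 0.55 and 0.41 (adjusted p = 8.87e-08 and 5.88e-06), STAM2 rose by 0.76 with siRNA2 (adjusted p = 2.67e-07), and RAB7A, which acts in late endosomes, fell by 0.64 with siRNA2 (adjusted p = 1.96e-10).

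Of 15 tested transcripts that ERK signalling is known to raise, 5 rose and 6 fell with siRNA1, beside 25.1% and 25.3% of all tested genes. With siRNA2, 3 rose and 4 fell, beside 27.2% and 28.9%. ETV4, an ETS factor, was at 86.4, 90.5 and 94.8 CPM in control, 159, 149 and 153 with siRNA1 and 45.2, 44.0 and 47.6 with siRNA2. Its log2 fold changes were 0.76 (adjusted p = 2.53e-10) and -0.99 (adjusted p = 3.63e-12). IER3, an early response gene, rose by 0.35 and 1.02 (adjusted p = 3.94e-05 and 8.11e-13), though 359 of its 1356 exonic bases overlap IER3-AS1 on the opposite strand. FOSB, at 7 to 17 counts in the control and siRNA1 libraries, was 1.09 lower on the log2 scale with siRNA1 (adjusted p = 0.0388), a call lost in 9 of 16 alternatives (adjusted p from 0.0279 to 0.138).

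**Figure D5:**
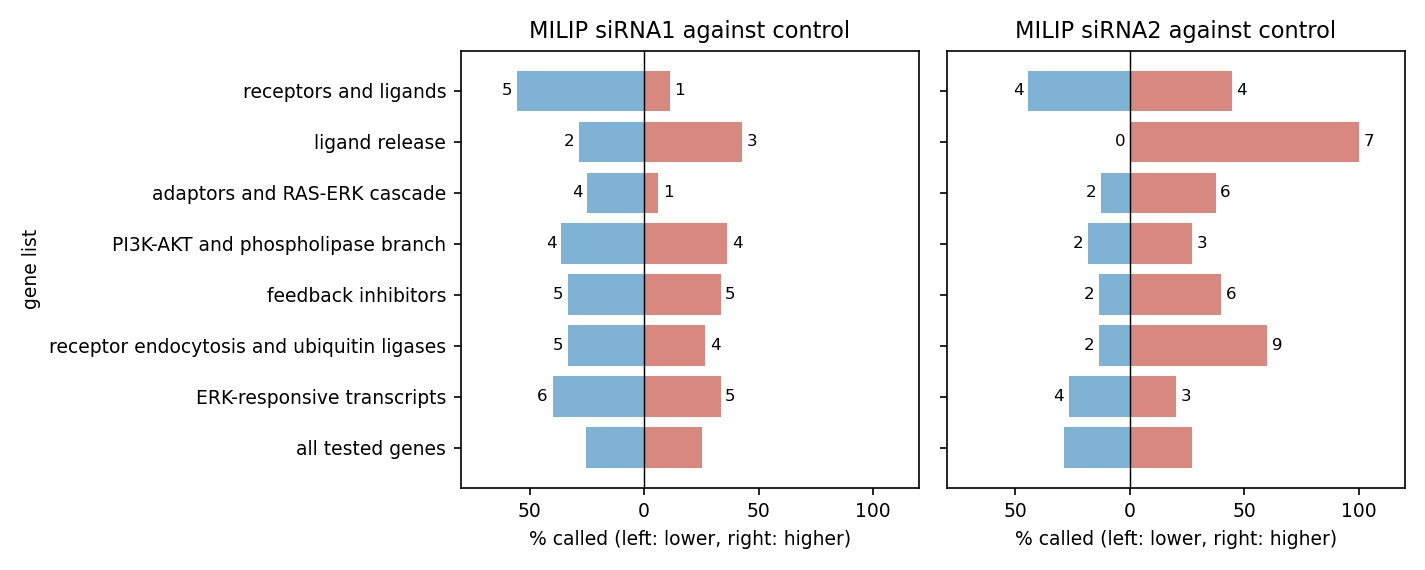
Percent of tested genes called higher (bars to the right) and lower (to the left) for each siRNA against control. Bars are for the receptor and ligand set, 6 pathway lists and all tested genes. The number of genes is at each bar except those of all tested genes. All 7 ligand release genes are higher with siRNA2, and the ERK-responsive list has 5 higher and 6 lower with siRNA1.

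The genes whose levels ran most like EGFR over the 9 libraries were CD274 (Pearson r = 0.990 of log2 CPM), GPD2 (0.987) and LAMA3 (0.987), out of 9374 genes compared. CD274, which encodes the immune checkpoint ligand PD-L1, averaged 40.5 ± 5.29 CPM in control, 19.7 ± 1.37 with siRNA1 and 22.5 ± 0.573 with siRNA2 (SD, n = 3). For HBEGF the closest were FSTL1 (0.999), WDR45B (0.999) and SEC61A1 (0.998). FSTL1, a secreted glycoprotein, averaged 448 ± 4.69 CPM in control, 122 ± 0.758 with siRNA1 and 588 ± 22.5 with siRNA2. Such correlations are descriptions: the libraries fall into 3 groups, and 92 genes for EGFR and 489 for HBEGF reached r above 0.95. For EGFR the third control library was the lowest of its group, and the part of that library in these r values was not tested.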

How the data were processed

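RNA of 9 libraries of transfected MDA-MB-231 cells was compared in 3 groups taken from the sample titles. The deposited table gives whole-number counts per gene, and FPKM values that the authors made from these counts: recomputing FPKM from count, exonic size and library total gave 100.0% of them within 0.005. Per the submitters' processing notes the tools included Trimmomatic 0.30, HISAT2 2.0.1, HTSeq 0.6.1 and DESeq. The notes name hg19, but 99.98% of 58394 identifiers overlap the same gene in GENCODE v29, so the coordinates are those of GRCh38. The strand setting was not given in the sources used here. Other named genes also share exonic bases with genes on the opposite strand, among them LRIG1 with SLC25A26 (907) and CBL with MCAM (509).

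The counts were fitted with edgeR 4.0.16 (R 4.3.3) in 1 model of the 3 groups, using filterByExpr (minimum count 10), TMM scaling, quasi-likelihood F tests (two-sided) and Benjamini-Hochberg adjustment over all 15345 tested genes, which hold 99.87% of counts. A gene was called at adjusted p below 0.05. The standard error is the log2 fold change divided by the root of F. CPM are counts scaled to a library of 1000000 with TMM factors. A count of 0 allows up to 3 counts, or 0.1518 to 0.1963 CPM, for counting error only. The script was checked on simulated counts. Alternatives were DESeq2 1.42.0, median-of-ratios scaling, no filter, a mean FPKM of at least 1, limma 3.58.1 on log2(FPKM + 1) and log2(FPKM + 0.1), only the groups compared, a replicate block, and leaving out each library.

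The members, the pathway and marker lists and the words searched were chosen with earlier results of these data known. Named pathway genes are, for each of 6 lists and each siRNA, up to 3 called genes with the largest fold change whose libraries all lie on 1 side of control. Some genes that this rule or the lists name are counted in their lists and not reported here by name. The genes most like the receptor and the ligand highest in control FPKM were taken among tested genes with a mean of at least 10 CPM. Members and genes with clone, accession, LINC or mitochondrial (MT-) names were left out of that comparison, also for the counts above r of 0.95. Protein sequences were not used here. Promoters are from RefSeq (GRCh38.p14) and windows from GENCODE v29 transcripts.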

Additional observations from a re-analysis of the deposited data

How the results depend on the processing

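No value that had passed the test changed direction in any of 17 alternatives. Of 453 recomputed member values, 426 kept their call, 19 lost it and 8 gained it, and of 1617 values of the named pathway genes 38 lost and 13 gained the call. The genes called over the whole table ranged from 6545 to 7750 (siRNA1 against control), 7388 to 8925 (siRNA2 against control) and 7762 to 9634 (siRNA2 against siRNA1). The correlation of same-numbered libraries' deviations from their group means ran from -0.051 to 0.097. For libraries with different numbers it ran from -0.135 to 0.139. These values showed no pairing by replicate number, but with so few libraries in a group they cannot exclude it. A fit with the replicate number as a block called 7750, 8604 and 9294 genes, among them 6, 8 and 8 members. Leaving out 1 library moved the summed ligand change between -1.46 and -1.42 (siRNA1) and between 0.33 and 0.42 (siRNA2). Depth limits genes with few counts, among them ERBB3, AREG, BTC, EPGN, EGF, NRG2, GAB1, CBLB, RHBDL2 and FOSB, and MILIP in the MILIP siRNA libraries. Replicate cultures, strandedness and the protocol text naming PLANE limit all comparisons.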
